A study of Homo sapiens with 24 samples.

Results

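The genes described here are 8 dual-specificity phosphatases of MAP kinases, DUSP1, DUSP4, DUSP5, DUSP6, DUSP7, DUSP8, DUSP10 and DUSP16. They were chosen by symbol from a count table of 60683 genes, all 8 were found, and all 8 were among the 16196 genes that passed the filter on low counts. MAP kinases (ERK, JNK and p38) are switched on when an upstream kinase phosphorylates a threonine and a tyrosine in their activation loop, and the dual-specificity phosphatases switch them off by removing both phosphates. Several of these phosphatases are themselves transcribed in response to MAP kinase signalling and so form negative feedback loops. DUSP1 is also a textbook target of the glucocorticoid receptor, a nuclear receptor that binds DNA once it has bound hormone, and is one of the genes through which glucocorticoids dampen inflammatory kinase signalling. In the liver, phosphatases of this family are known for acting on stress kinases that influence glucose and lipid metabolism.

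All cells were HepG2, a line from a human liver carcinoma. Their receptor gene NR3C1 had been knocked out with CRISPR/Cas9 (the genotype labels read sg18), and a Ty1-tagged receptor cDNA was returned in a lentivirus that doxycycline switches on. The cDNA encoded the wild-type receptor (WT), K154R, in which the lysine can no longer be acetylated, or K154Q, which imitates the acetylated lysine. Doxycycline doses were chosen to match receptor protein, cells were then kept in medium with charcoal-stripped serum, and dexamethasone, a synthetic glucocorticoid, was given at 1 µM for 6 h, or ethanol as the vehicle. The 6 groups (WT, K154R and K154Q, each with vehicle and with dexamethasone) had 4 biological replicates each, from 2 experiments with 2 transductions each. Every group, the vehicle controls included, therefore carried the knockout, an integrated virus and a doxycycline treatment. The receptor was made from the inducible lentiviral construct, not from its own locus. The comparisons ask whether the phosphatase genes responded to the hormone and whether the response or the level differed between the receptor variants.

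The 24 libraries held 23863672 to 42072021 counts (median 31408851). NR3C1 counts, which can come from the returned cDNA and so do not test the knockout, were between 69.6 and 113 CPM (counts relative to the total of the library, scaled with TMM factors). All 10 hepatocyte markers were detected in every library, with ALB at 14859 to 20205 CPM. Markers of blood, endothelial, fibroblast and neural cells summed to 18.7 to 39.5 CPM, of which PDGFRB made up 15.7 to 37.1 CPM, and PTPRC and CD3E were at 0 in all 24 libraries. The hormone treatment was visible in FKBP5, a receptor co-chaperone gene, which rose from 52.1 ± 1.44 to 102 ± 7.68 CPM in WT, from 50.2 ± 5.91 to 113 ± 12.4 CPM in K154R and from 51.3 ± 4.24 to 106 ± 11.1 CPM in K154Q (mean ± SD, n = 4).

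The DUSP1 promoter is shown because DUSP1 was the member called for the hormone. RefSeq promoter sequences (build GRCh38.p14, 250 bases before to 50 after the start) were found for 6 of the 8 genes, DUSP1, DUSP6, DUSP7, DUSP8, DUSP10 and DUSP16, with 7 starts in all. Only the bases before the start are printed, 5′ to 3′ on the gene's strand. In the DUSP1 sequence (chr5:172771196-172771445, minus strand) the capitals mark a cAMP response element, TGACGTCA, whose first base lies 125 bases before the start, and an E-box, CACGTG, whose first base lies 108 bases before it. The DUSP8 stretch (chr11:1572318-1572409, minus strand) is shown for comparison because it was the other promoter of the family with a match. Its capitals mark the cAMP response elements at 118 and 74 bases before the RefSeq start. That start lies upstream of the DUSP8 gene as placed by GENCODE v29 (chr11:1554044-1571920), so these distances hold for the RefSeq start only.
DUSP1: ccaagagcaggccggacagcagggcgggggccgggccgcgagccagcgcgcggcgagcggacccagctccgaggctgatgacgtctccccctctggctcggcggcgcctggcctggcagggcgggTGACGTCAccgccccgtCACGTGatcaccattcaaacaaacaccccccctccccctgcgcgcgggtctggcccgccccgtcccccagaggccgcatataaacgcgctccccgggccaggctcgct
DUSP8: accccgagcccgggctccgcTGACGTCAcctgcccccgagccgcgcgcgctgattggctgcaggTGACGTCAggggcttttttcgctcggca

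The letters TGACGTCA, the site bound by CREB and ATF factors, occurred in 1.85% of 35116 RefSeq promoters of this length, and CACGTG in 7.26%; both strands were searched and the motifs did not overlap. The glucocorticoid response element was searched as AGAACA and its reverse complement TGTTCT with any 3 bases between them, a strict spelling that only 1 of the 35116 promoters held (0.00285%), and as the single arm AGAACA, which 14.8% held. Neither spelling occurred in any of the 7 promoters of the family. A receptor site spelled otherwise or lying outside the 300 bases was not looked for. The windows follow the RefSeq starts. On the minus strand, that of DUSP16 lies wholly upstream of the GENCODE v29 gene, as that of DUSP8 does, and that of DUSP6 lies within the gene.

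Per length, the family covered a wide range of levels in these cells. DUSP16 was the most abundant of the 8 genes at 17.7 ± 1.47 CPM per kb (mean ± SD over 24 libraries, using the gene lengths in the table). DUSP6 followed at 8.31 ± 2.43, DUSP1 at 7.27 ± 1.71, DUSP7 at 3.39 ± 0.384 and DUSP8 at 2.93 ± 0.432 CPM per kb. The lower end was made up of DUSP5 at 1.98 ± 0.744, DUSP10 at 1.05 ± 0.214 and DUSP4 at 0.190 ± 0.0495 CPM per kb. The libraries of DUSP16 lay above those of every other member and those of DUSP4 below. In between, DUSP6 overlapped with DUSP1, DUSP7 with DUSP8 and with DUSP5, DUSP8 with DUSP5, and DUSP5 with DUSP10. DUSP9, a cytoplasmic phosphatase of ERK that belongs to the same family but not to the 8 genes chosen, was far more abundant than all of them at 225 ± 27.3 CPM per kb (622 CPM). DUSP2, a nuclear phosphatase known from blood cells, had 5 counts in all over the 24 libraries and was not tested.

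**Figure D1:**
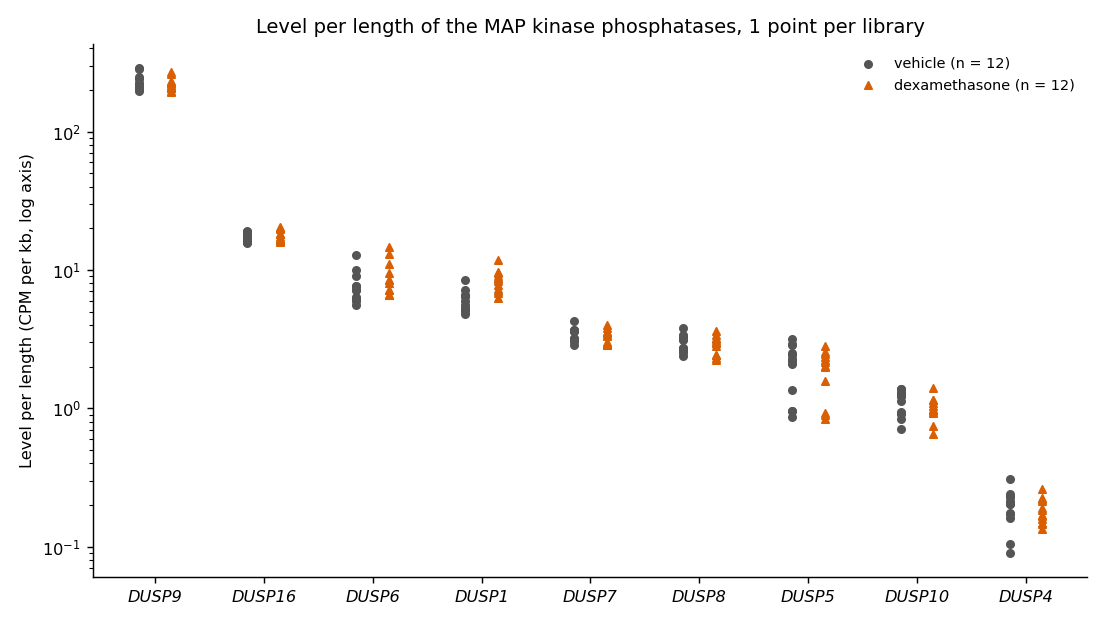
Level per length of the 8 chosen phosphatase genes and DUSP9, in CPM per kb on a log axis, with 1 point for each library and vehicle (grey circles) beside dexamethasone (orange triangles), 12 libraries each. DUSP9 lies between 194 and 288 CPM per kb, DUSP16 leads the 8 genes, and DUSP4 reaches at most 0.308 CPM per kb.

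The first role group holds the inducible nuclear phosphatases DUSP1, DUSP4 and DUSP5. DUSP1 (ENSG00000120129) lies on the minus strand of chr5:172768090-172771195 (GENCODE v29, GRCh38), acts on p38, JNK and ERK, and was the one member called for the hormone. In WT cells DUSP1 stood at 10.5, 12.01, 13.3 and 17.1 CPM with vehicle (replicates 1 to 4) and at 12.7, 14.6, 16.6 and 17.5 CPM with dexamethasone. The WT groups overlapped, since replicate 4 with vehicle was higher than replicates 1, 2 and 3 with dexamethasone. In K154R cells DUSP1 stood at 10.3, 11.3, 13.1 and 14.5 CPM with vehicle and at 14.2, 17.5, 19.0 and 23.6 CPM with dexamethasone. Only the lowest dexamethasone library and the highest vehicle library of K154R crossed. In K154Q cells DUSP1 stood at 9.60, 10.7, 13.1 and 13.2 CPM with vehicle and at 13.7, 15.6, 18.1 and 19.5 CPM with dexamethasone, and these groups did not overlap. Such a separation, all dexamethasone libraries above all vehicle libraries, was shown by 1 of the 8 genes in K154Q, against 1.27% of the 16196 tested genes, and by 0 of 8 in WT and in K154R, against 1.41% and 1.33%.

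Averaged over the 3 genotypes, DUSP1 rose by 0.45 on the log2 scale (SE 0.09, 1.36-fold, 95% interval 0.25 to 0.64), with an adjusted p of 0.00972 in edgeR's quasi-likelihood test with Benjamini-Hochberg adjustment over all tested genes. It was the 1 of 8 members called in this comparison, in which 1.06% of all tested genes were called (1.02% were called higher and 0.0370% lower). In these bulk libraries, more cells with the transcript and more transcript per cell cannot be told apart. The call was kept when any single library was left out (adjusted p 0.00252 to 0.0247). It was lost when all 6 libraries with replicate number 2 (log2 difference 0.44, adjusted p = 0.189) or number 3 (0.45, adjusted p = 0.118) were left out.

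Taken singly, WT cells showed a log2 difference of DUSP1 of 0.21 (SE 0.16, 95% interval -0.12 to 0.55), K154R cells of 0.61 (SE 0.16, 0.27 to 0.94) and K154Q cells of 0.52 (SE 0.16, 0.19 to 0.86). None of the 3 was called after adjustment in edgeR (adjusted p of 1.00, 0.195 and 0.686), and 0 of 8 members were called in any single genotype. Among all tested genes 0.161% were called in WT, 0.309% in K154R and 0.130% in K154Q. At an unadjusted p under 0.05 the members numbered 0 in WT, 1 in K154R and 1 in K154Q, DUSP1 both times, against 3.22%, 3.19% and 2.26% of all tested genes; DESeq2 and limma-voom called 0 members in each. Replicate numbers paired the libraries of K154R and of K154Q. When that number entered the fit as a block, DUSP1 was called in both by edgeR, at 0.59 (adjusted p = 5.5e-07) in K154R and 0.52 (adjusted p = 1.08e-05) in K154Q, where 1.23% and 0.722% of all genes were called. Without the dexamethasone library of K154R replicate 4, the highest of all, the K154R difference without a block was 0.47. Without that of replicate 1, the lowest of its group, it was 0.72.

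The differences between genotypes in the DUSP1 response were tested directly. On the log2 scale, the K154R response less the WT response came to 0.39 (SE 0.23, 95% interval -0.08 to 0.87), and the K154Q response less the WT response to 0.31 (SE 0.23, -0.16 to 0.79). The K154Q response minus the K154R response was -0.08 (SE 0.23, -0.56 to 0.39). The adjusted p-values in edgeR were 1.00 for all 3, so the data do not show that the response depended on the receptor variant. In this fit, which has no replicate block, the intervals leave room for differences as large as the response itself. With the block, edgeR gave 0.37 (SE 0.087, unadjusted p = 0.000254) for K154R minus WT and 0.30 (SE 0.087, unadjusted p = 0.00214) for K154Q minus WT. Neither was called after adjustment. Replicate numbers did not pair the libraries in WT by the rule used here. It asks that every correlation between libraries of the same number, with group means removed, exceed 0.1. In WT 3 of 4 exceeded it (lowest 0.05, median 0.40), and in K154R, which met the rule, the median was 0.34. In the fit without a block, leaving out libraries moved the values both ways. The vehicle library of WT replicate 4 was the highest of its group. Without it the WT response was 0.37, the K154R minus WT difference 0.23 and the K154Q minus WT difference 0.16. Without all libraries of replicate number 4 these values were 0.29, 0.26 and 0.21. Leaving out the dexamethasone library of K154R replicate 1 raised the K154R minus WT difference to 0.50. Leaving out the vehicle library of WT replicate 1 raised the K154Q minus WT difference to 0.39. Under dexamethasone the DUSP1 level in K154R was 0.28 above that in WT (SE 0.16, adjusted p = 1.00 in edgeR). It was 0.14 above it without the K154R library of replicate 4 and 0.39 above it without that of replicate 1.

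**Figure D2:**
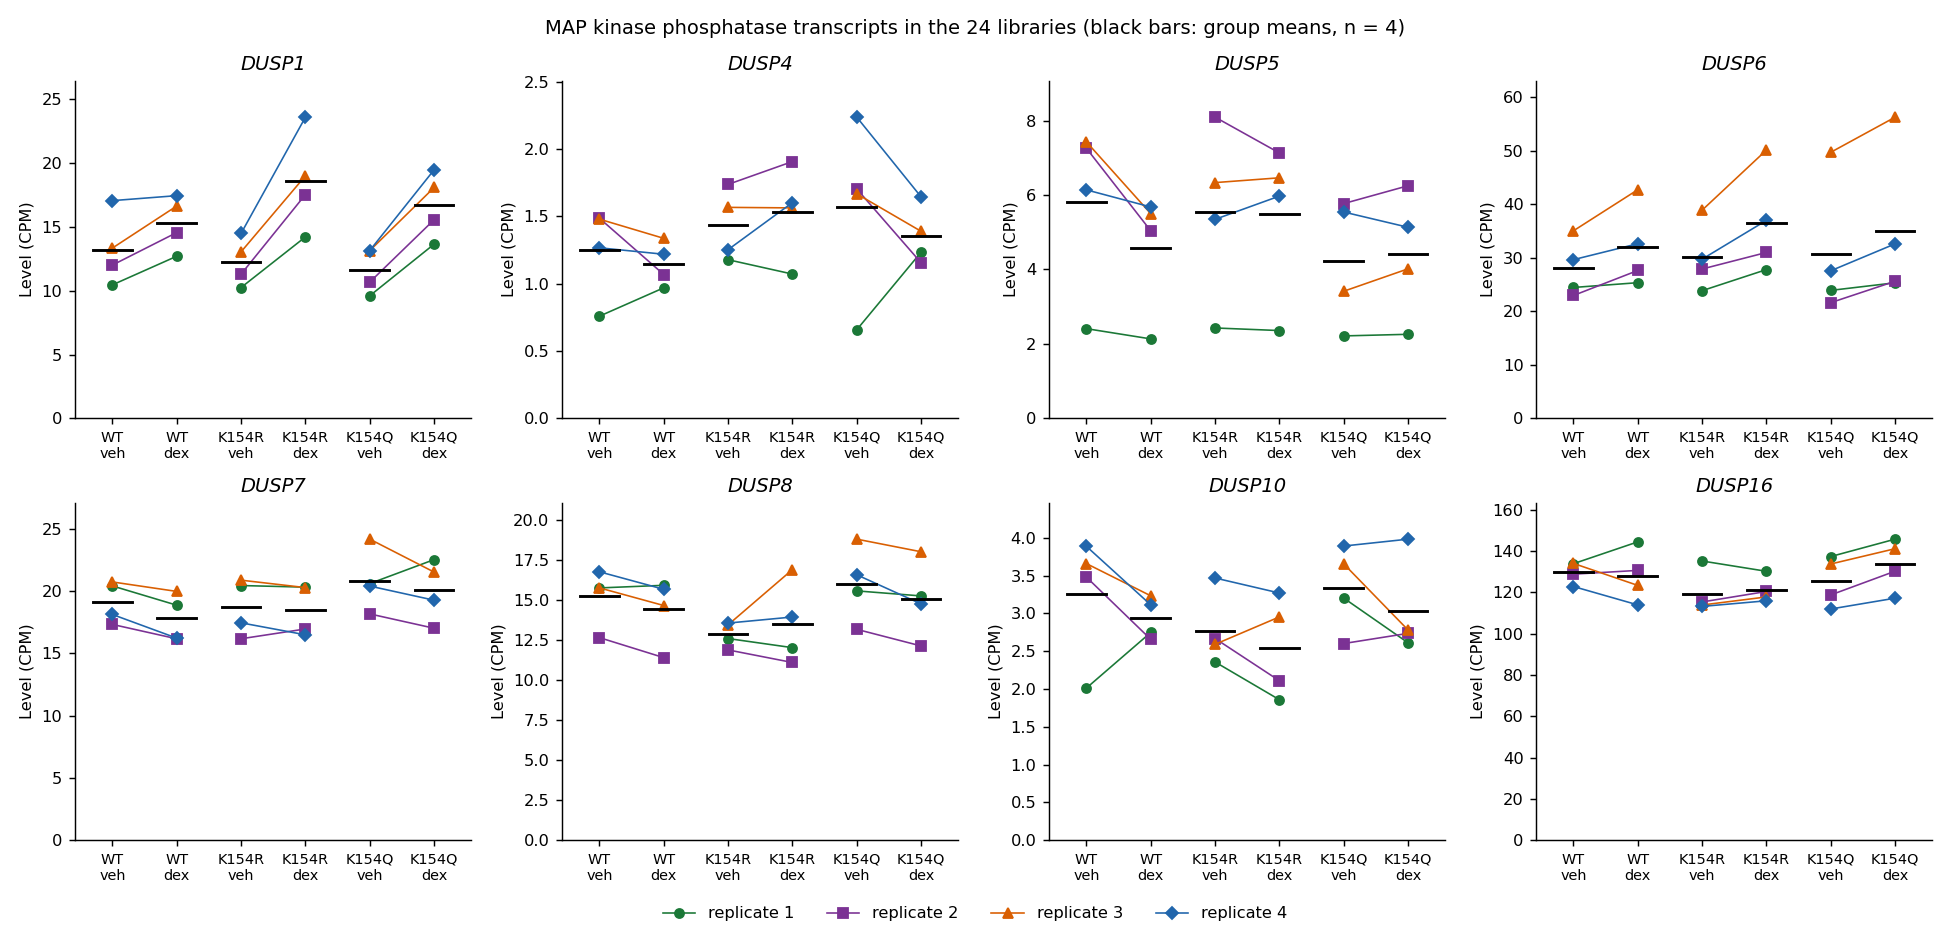
Level (CPM) of each of the 8 genes in the 24 libraries, by genotype and treatment (veh, vehicle; dex, dexamethasone), with lines joining libraries of 1 replicate number and black bars at the group means (n = 4). DUSP1 and DUSP6 lie higher with dexamethasone on all 12 lines, DUSP5 is lowest in replicate 1 in every group, and DUSP6 is highest in replicate 3 in every group.

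When each dexamethasone library was set against the vehicle library of its genotype and replicate number, DUSP1 was higher in 12 of 12 pairs. The pairs are by number only, since by the correlation rule replicate numbers paired the libraries in K154R and K154Q but not in WT. These differences ran from 0.03 in replicate 4 of WT to 0.70 in replicate 4 of K154R on the log2 scale (median 0.49). DUSP6 was the only other member that was higher in all 12, so the count was 2 of 8, against 1.93% of the 16196 tested genes.

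DUSP4 (ENSG00000120875, chromosome 8, minus strand) acts on nuclear ERK and JNK and was detected in every library with few counts, 22 to 65 a library. It was between 0.658 and 2.24 CPM and was higher with dexamethasone in 4 of 12 pairs. Its mean log2 difference was -0.08 (SE 0.16, 95% interval -0.40 to 0.24), and by genotype it was -0.13 for WT, 0.10 for K154R and -0.20 for K154Q. Changes of DUSP4 within these wide intervals could not be detected in these libraries.

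DUSP5 (ENSG00000138166, chr10:110497838-110511544, plus strand) acts on ERK in the nucleus. Its level differed more between replicate numbers than between groups: in replicate 1 it was at 2.13 to 2.43 CPM in all 6 groups, and in the other replicates at 3.41 to 8.09 CPM. With dexamethasone WT cells had 2.13, 5.04, 5.50 and 5.68 CPM, against 2.41, 7.25, 7.43 and 6.14 CPM with vehicle, so that all 4 pairs were lower. That WT difference was -0.35 on the log2 scale (SE 0.40, 95% interval -1.17 to 0.48, adjusted p = 1.00 in edgeR). In K154R it was -0.01 (SE 0.40), in K154Q 0.07 (SE 0.41) and on average -0.09 (SE 0.23). Without hormone, the log2 difference of DUSP5 between K154Q and WT was -0.46 (SE 0.40, adjusted p = 1.00 in edgeR), with overlapping groups. With the replicate block edgeR gave -0.43 (SE 0.13, unadjusted p = 0.00356) for it, not called after adjustment. The WT hormone response with the block was -0.33 (SE 0.13, unadjusted p = 0.0199, adjusted p = 0.388 in edgeR), against -0.02 in K154R and 0.05 in K154Q.

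The second role group, the cytoplasmic phosphatases that prefer ERK, holds DUSP6 and DUSP7. DUSP6 (ENSG00000139318, chr12:89347232-89353271, minus strand) is a feedback inhibitor that ERK signalling itself induces. Its exons overlap with those of the antisense gene AC024909.2. The library kit keeps strand, but reads of the antisense gene may be included, since the counting setting is one of those not given in the sources used here. In WT cells DUSP6 stood at 24.5, 23.0, 35.0 and 29.6 CPM with vehicle and at 25.3, 27.6, 42.7 and 32.6 CPM with dexamethasone. In K154R cells it stood at 23.9, 27.9, 38.9 and 29.7 CPM with vehicle and at 27.8, 31.0, 50.1 and 37.0 CPM with dexamethasone. In K154Q cells it stood at 23.9, 21.6, 49.7 and 27.6 CPM with vehicle and at 25.3, 25.6, 56.3 and 32.6 CPM with dexamethasone. Replicate 3 was highest in all 6 groups, and the treatment groups overlapped in every genotype.

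The mean log2 difference of DUSP6 was 0.22 (SE 0.15, 95% interval -0.09 to 0.53) and was not called by edgeR (adjusted p = 0.871). This call depended on the fit: without the filter on low counts edgeR gave an adjusted p of 0.0410, with 0.856% of 37960 genes called. With the replicate block edgeR gave 0.21 (SE 0.05, adjusted p = 0.0137), with 685 of 16196 genes called. By the same correlation rule, however, replicate numbers did not pair the libraries over all groups (55 of 60 correlations exceeded 0.1). Within pairs of the same replicate number the DUSP6 difference was small and of 1 sign, from 0.05 to 0.37 (median 0.23). The genotypes gave 0.19 (WT), 0.28 (K154R) and 0.19 (K154Q), each with an SE of 0.26. In K154R, where replicate numbers paired the libraries, edgeR called DUSP6 with the block within genotype (0.27, adjusted p = 0.00703, 1.83% of all genes called) but not with the block over all 24 libraries (0.26, adjusted p = 0.249). The K154R response minus the WT response was 0.09 (SE 0.37), K154Q minus WT was -0.00 (SE 0.37) and K154Q minus K154R was -0.09 (SE 0.37), each with an adjusted p of 1.00 in edgeR. The response in K154Q was -0.13 without the dexamethasone library of replicate 3 and 0.53 without the vehicle library of that replicate, where its partner stayed in; leaving out whole replicate numbers gave 0.17 to 0.21.

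DUSP7 (ENSG00000164086, chr3:52048919-52056550, minus strand) varied little, from 16.2 to 24.2 CPM. It was lower with dexamethasone in 10 of 12 pairs, with a mean log2 difference of -0.06 (SE 0.06, 95% interval -0.19 to 0.07), and was not called. Values by genotype were -0.11 in WT, -0.02 in K154R and -0.05 in K154Q. DUSP9, the third ERK phosphatase of this kind, had a mean log2 difference of -0.04 (SE 0.07, adjusted p = 0.950 in edgeR) and was at 536 to 797 CPM.

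The phosphatases that prefer the stress kinases JNK and p38 are DUSP8, DUSP10 and DUSP16. DUSP16 (ENSG00000111266, chr12:12474210-12562383, minus strand), a JNK phosphatase, was measured with the most counts of the 8 genes, 2709 to 5734 a library, and had the narrowest intervals. Its mean log2 difference was 0.03 (SE 0.05, 95% interval -0.07 to 0.13), with group means between 119 and 134 CPM. The DUSP16 difference came to -0.02 for WT, 0.02 for K154R and 0.09 for K154Q, where 4 of 4 pairs were higher without a call.

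DUSP10 (ENSG00000143507, chr1:221701424-221742176, minus strand) acts on p38 and JNK and was at 1.86 to 3.98 CPM. Its mean log2 difference was -0.13 (SE 0.12, 95% interval -0.38 to 0.11, adjusted p = 0.889 in edgeR), with 8 of 12 pairs lower. The values by genotype were alike, -0.16 in WT, -0.11 in K154R and -0.14 in K154Q, and none was called.

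DUSP8 (ENSG00000184545, chr11:1554044-1571920, minus strand), a phosphatase of JNK and p38 whose promoter held a pair of cAMP response elements, was at 11.1 to 18.8 CPM. Its mean log2 difference with hormone was -0.03 (SE 0.08, 95% interval -0.20 to 0.13), being -0.08 in WT, 0.07 in K154R and -0.09 in K154Q. Without hormone DUSP8 was at 15.8, 12.7, 15.8 and 16.8 CPM in WT, at 12.6, 11.9, 13.5 and 13.6 CPM in K154R and at 15.6, 13.2, 18.8 and 16.6 CPM in K154Q. K154R was the lowest of the 3 genotypes for every replicate number, although the groups overlapped, replicate 2 being low in each of them. How many of all tested genes showed such an order was not counted. K154Q exceeded K154R by 0.32 on the log2 scale (SE 0.14, 95% interval 0.03 to 0.60, adjusted p = 1.00 in edgeR), and K154R minus WT was -0.24 (SE 0.14). Replicate numbers paired the libraries in both comparisons. With the replicate block edgeR gave 0.31 (SE 0.078, unadjusted p = 0.000588, adjusted p = 0.436) for K154Q minus K154R. For K154R minus WT it gave -0.24 (SE 0.078, unadjusted p = 0.00526, adjusted p = 0.768).

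**Figure D3:**
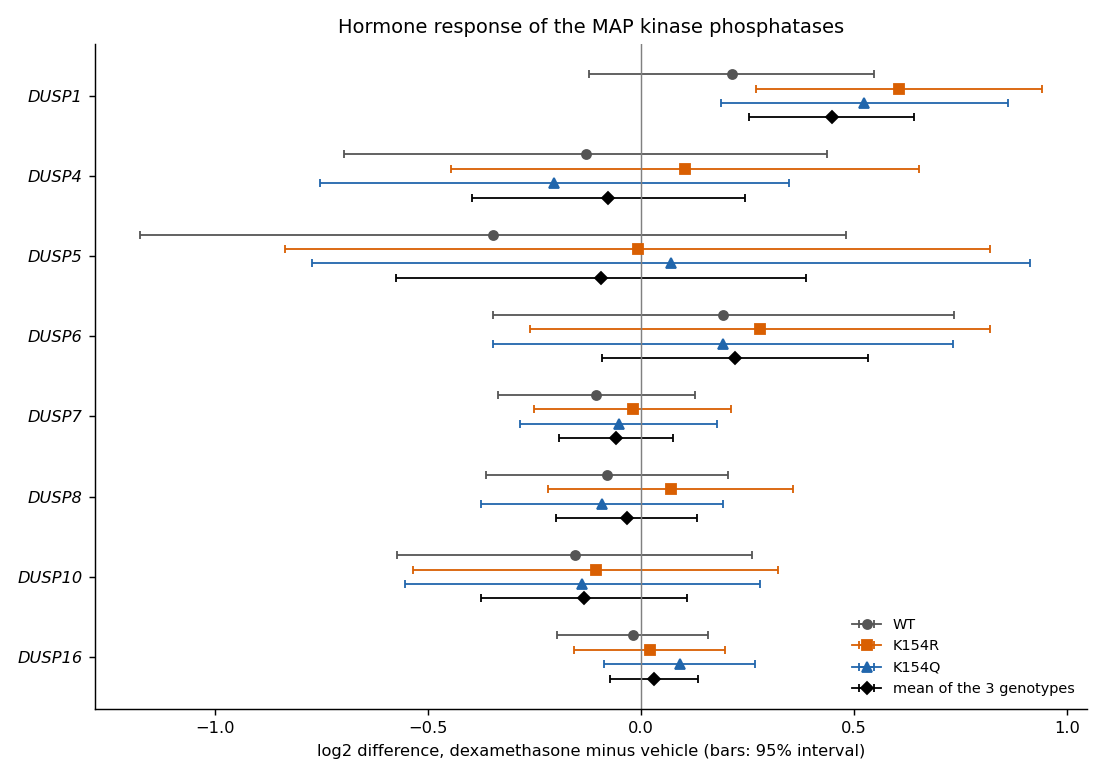
Log2 difference of dexamethasone minus vehicle for each of the 8 genes in WT, K154R and K154Q and for the mean of the 3 genotypes, with 95% intervals from edgeR. The interval of the mean excludes 0 for DUSP1 (0.25 to 0.64) and includes it for the other 7 genes.

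Beyond DUSP1, edgeR called no member for the hormone in the fit with the filter and without a replicate block; DUSP6 was called in other fits. The median log2 difference of the 8 genes was -0.09 for WT, 0.04 for K154R, 0.01 for K154Q and -0.05 in the mean, against -0.01, -0.01, -0.00 and -0.01 for all tested genes. In the 3 comparisons between responses and in the 6 comparisons between genotypes at 1 treatment, edgeR called 0 of 8 members and 0 of 16196 genes (0% in each). Without a replicate block, the members at an unadjusted p under 0.05 numbered 0 in 8 of these 9 comparisons. They numbered 1 in the ninth, K154Q against K154R with vehicle (DUSP8), where 1.28% of all tested genes passed. In the other 8 the share was 0.611% to 3.00%. With the block in edgeR, members passed in each comparison of levels that replicate numbers paired. The smallest unadjusted p was 0.00526 for K154R against WT (DUSP8), 0.00356 for K154Q against WT (DUSP5) and 0.000588 for K154Q against K154R (DUSP8), all with vehicle. Under dexamethasone it was 0.0125 for K154Q against K154R (DUSP16). None was called after adjustment, and the share of all genes was not counted. DESeq2 and limma-voom also called 0 members in all 9. Over the 6 comparisons between genotypes the members' log2 differences ran from -0.46 to 0.42.

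The variation among the 24 libraries was divided by sums of squares of log2 CPM, as a description. For DUSP1, treatment took 47.3% and replicate number 42.2% of the variation, whereas over all tested genes the medians were 2.61% and 42.5%. The treatment share of DUSP1 was higher than that of 99.0% of tested genes. For the other 7 members treatment took between 0.153% (DUSP4) and 8.10% (DUSP6). Replicate number took 86.0% for DUSP5, 80.2% for DUSP6 and 69.8% for DUSP7, shares that exceeded those of 99.1%, 96.5% and 87.6% of tested genes. Genotype took its largest share among the members in DUSP8, at 22.2%, against a median of 5.07% over all genes. In DUSP1 replicate 1 was the lowest and replicate 4 the highest in all 6 groups, while DUSP16 was lowest in replicate 4 in all 6. With the experiment and transduction behind each number not given in the sources used here, their parts cannot be told apart.

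**Figure D4:**
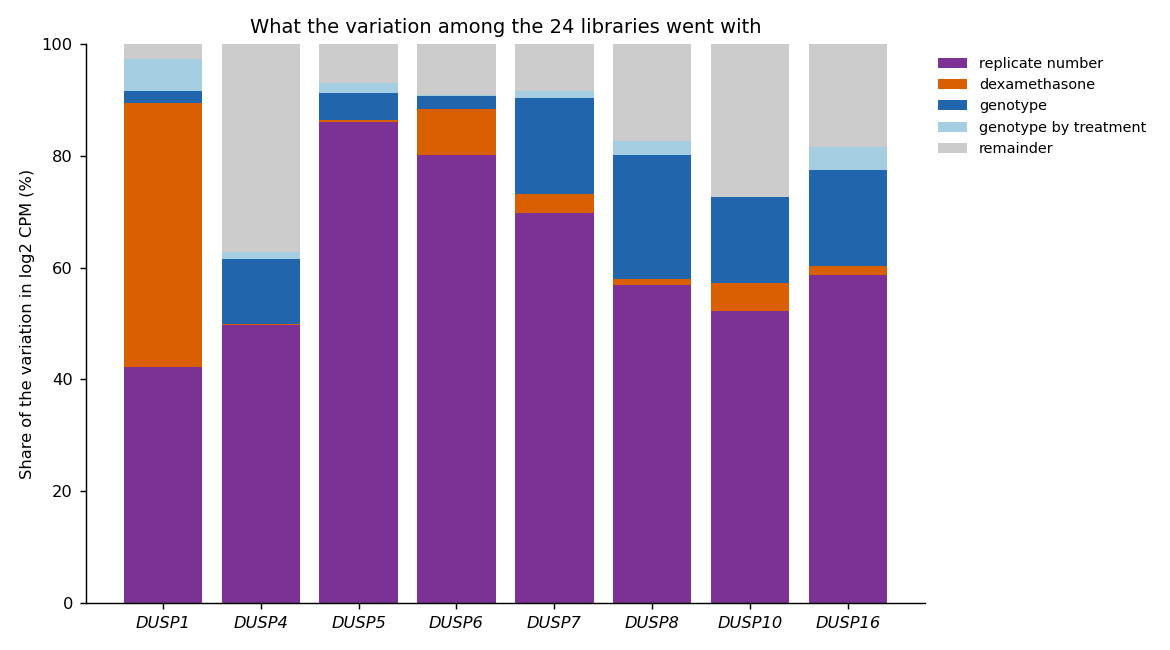
Share of the variation in log2 CPM over the 24 libraries that went with replicate number, dexamethasone, genotype, genotype by treatment and the remainder, in percent for each of the 8 genes. Dexamethasone takes 47.3% for DUSP1 and at most 8.10% for any other member, while replicate number takes 86.0% for DUSP5 and 80.2% for DUSP6.

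The genes around the phosphatases in the pathway were looked at through fixed lists, in the mean response over the 3 genotypes, in which 1.06% of all tested genes were called and 7.01% had an unadjusted p under 0.05. Of the MAP kinases themselves, the substrates, 0 of 9 tested were called by edgeR (0 at an unadjusted p under 0.05). MAPK7, the gene of ERK5, had the smallest p (log2 difference 0.15, SE 0.08, adjusted p = 0.744 in edgeR). Of the upstream kinases 0 of 21 were called, with 2 at an unadjusted p under 0.05, MAP3K3 and MAP3K2 (both 0.12). Of the kinases that MAP kinases activate 0 of 10 were called. MKNK1, which phosphorylates a translation initiation factor, had the smallest p of these (0.12, SE 0.04, adjusted p = 0.327 in edgeR).

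The Sprouty and SPRED genes, feedback inhibitors of Ras and ERK, gave 0 calls of 7 in edgeR, and 0 at an unadjusted p under 0.05. SPRED2 was at 0.09 (SE 0.06). Among other phosphatases of MAP kinases 0 of 5 were called, with PPM1B at 0.14 (SE 0.04, adjusted p = 0.211 in edgeR) and PPM1D at -0.11 (SE 0.04, adjusted p = 0.504), both at an unadjusted p under 0.05. The atypical dual-specificity phosphatases, which lack the kinase-binding domain of the 8 genes, gave 0 calls of 10 and 0 at an unadjusted p under 0.05, with DUSP14 at -0.13 (SE 0.07). DESeq2 and limma-voom were not counted over these lists.

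The immediate early and ERK-induced genes were the 1 list with calls, 2 of 18 higher and 0 lower, against 1.02% and 0.0370% of all tested genes. KLF6, a zinc finger transcription factor, rose by 0.46 (SE 0.06, adjusted p = 7.25e-05 in edgeR), and FOSL2, a FOS family member, by 0.35 (SE 0.06, adjusted p = 0.0016). KLF6 was also called in K154R alone (0.54, adjusted p = 0.0269). The other 16 tested genes of that list were not called, JUN being at -0.12 (SE 0.06) and PHLDA1 at -0.09 (SE 0.06). The median of the list was -0.04.

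The pattern of DUSP1 over the 24 libraries was compared with those of 10359 tested genes whose mean level was 5 CPM or more, by Pearson correlation of log2 CPM. The 5 most alike were CAVIN2 (r = 0.93, Spearman's rho 0.93), ERRFI1 (r = 0.91, rho 0.92), CEBPD (r = 0.90, rho 0.90), APOL2 (r = 0.90, rho 0.90) and STX7 (r = 0.89, rho 0.88). The libraries share treatment and replicate number, and these correlations are a description. All 5 genes were called higher in the mean response, by 0.89 for CAVIN2, 0.57 for ERRFI1, 0.92 for CEBPD, 0.58 for APOL2 and 0.21 for STX7. Of all tested genes 1.02% were called higher. The 5 were picked for likeness to DUSP1 in these same libraries, treatment included, so their calls are not a separate result. Once group means were removed, r was still 0.94 for CAVIN2, 0.86 for ERRFI1, 0.82 for CEBPD, 0.82 for APOL2 and 0.95 for STX7. In these libraries, which also picked them, the 5 genes thus followed DUSP1 from replicate to replicate too. That r was not computed for other genes, so it does not set the 5 apart. CAVIN2 encodes a caveolar coat protein, ERRFI1 an inhibitor of the EGF receptor and CEBPD a C/EBP transcription factor.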

How the data were processed

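Poly(A) RNA of 24 cultures, 4 in each of 6 groups, was sequenced, and the authors deposited raw counts per gene that had not been normalized, with a gene length. Per the submitters' processing notes, bcl2fastq 2.20.0.422, cutadapt 3.7, STAR 2.7.6a, featureCounts 2.0.3 and GRCh38.p13 were used. With the annotation release, the strand setting and the treatment of reads that map to several genes not given in the sources used here, values of overlapping and antisense genes are uncertain. Samples were grouped by their titles, and list genes were matched by Ensembl identifier (137 of 137).

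In R 4.3.3, edgeR 4.0.16 kept 16196 of 37960 genes with a count (filterByExpr), scaled libraries by TMM and fitted 1 mean per group to all 24 libraries by quasi-likelihood, without a replicate block. P-values of 13 contrasts were adjusted over all tested genes by Benjamini-Hochberg, and genes were called at an adjusted p under 0.05. The SE is the absolute log2 difference divided by the root of the test's F, and 95% intervals use it. Log2 CPM used a prior count of 2. Library depth was 23863672 to 42072021 counts; replicates differed by more than sampling noise (chi-square per degree of freedom at least 12.7), so their spread limits the precision. The fit was tested on simulated counts with the same dispersion for all genes and no effect of replicate number. That test therefore does not cover differences between replicate numbers such as those seen here. Alternatives were RLE size factors, no filter, limma-voom (limma 3.58.1), DESeq2 1.42.0, 2 forms of the replicate block, only the groups compared, and leaving out libraries.

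Replicate numbers were taken to pair libraries where every same-number correlation of deviations from group means exceeded 0.1. This held for the responses in K154R (lowest 0.264) and K154Q (0.381), their difference (0.183) and 4 comparisons of levels (K154R with WT, K154Q with WT and K154Q with K154R under vehicle, K154Q with K154R under dexamethasone); it did not hold in WT (lowest 0.0504) or over all groups (55 of 60 pairs).

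The members and lists were chosen with earlier results of these data known. Named genes are the 8 members, DUSP2, DUSP9, NR3C1 and FKBP5, up to 4 tested genes of each other list with the smallest p in the mean response, and the 5 genes most correlated with DUSP1. Coordinates are from GENCODE v29 (GRCh38), and promoter sequences from RefSeq (GRCh38.p14). Protein sequences were not used here.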

Additional observations from a re-analysis of the deposited data

Results flagged for a closer look

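Each of the 48 sets of 4 libraries (8 genes in 6 groups) was checked for a library whose gap to the nearest other library was most of the range of its group. Chance alone gives about 1 in 20 such sets, or 2.4 of 48, and 2 were found. DUSP10 in K154Q cells with dexamethasone was at 3.98 CPM in replicate 4, against 2.61 to 2.78 CPM in the other replicates. DUSP16 in K154R cells with vehicle was at 135 CPM in replicate 1, against 113 to 115 CPM in the other replicates. Neither gene was called in the hormone comparison of that genotype with or without the library. No member differed between genotypes in its response by a direct test in edgeR after adjustment, with or without a replicate block.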

How the results depend on the processing

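The number of members called moved in 3 comparisons. In K154R it was 0 in the reported fit, 1 without the filter, 1 with the replicate block and 2 with the block within genotype; in K154Q it was 1 under each of these 3 settings; in the mean response it was 2 under each, against 1. With the replicate block, the gene that edgeR called in K154R and in K154Q was DUSP1 (adjusted p = 5.5e-07 and 1.08e-05). In the mean response the added gene was DUSP6 (adjusted p in edgeR 0.0137 with the replicate block, 0.0410 without the filter, 8.27e-05 with the block within genotype). DUSP6 was also called by edgeR in K154R with the block within genotype (0.27, adjusted p = 0.00703). DUSP1 in WT was at 0.22 with the replicate block (adjusted p = 0.107). With the replicate block the DUSP1 response in K154R minus WT was 0.37 (SE 0.087, unadjusted p = 0.000254) and in K154Q minus WT 0.30 (SE 0.087, unadjusted p = 0.00214), each with an adjusted p of 1.00 in edgeR, against an SE of 0.23 without it. The replicate block changed no other call among the members. Leaving out libraries gave 0 to 1 members called in the mean response, 0 without the 6 libraries of replicate number 2 or of number 3; leaving out a whole number was chosen after seeing the data. DUSP1 kept its direction in all 4 hormone comparisons under every setting, and RLE size factors, DESeq2 (adjusted p = 8.9e-04 in the mean response) and limma-voom changed no member's call. Over all genes, the calls in the mean response were 172, 325 without the filter, 685 with the replicate block, 1037 with the block within genotype and 258 with DESeq2; in WT they were 26, 78, 128, 208 and 50, in K154R 50, 109, 200, 296 and 75, and in K154Q 21, 72, 117, 184 and 49. With only the groups compared they were 16 in WT, 24 in K154R and 12 in K154Q. Between genotypes at 1 treatment, 0 genes were called, against 8 to 19 without the filter and 2 to 5 with the replicate block. The cause was not tested.

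Values near 0 changed sign. DUSP5 in K154R was 0.056 in limma-voom, and the DUSP6 response in K154Q minus WT was 0.022 in limma-voom, 0.0059 without the filter and 0.0011 with the replicate block. Leaving out libraries gave these ranges of log2 differences. In WT, DUSP16 ran from -0.079 to 0.044 and DUSP8 from -0.16 to 0.023. In K154R, DUSP4 ran from -0.019 to 0.24, DUSP5 from -0.27 to 0.24, DUSP7 from -0.085 to 0.039, DUSP8 from -0.055 to 0.15, DUSP10 from -0.25 to 0.019 and DUSP16 from -0.013 to 0.086. In K154Q, DUSP4 ran from -0.47 to 0.023, DUSP5 from -0.15 to 0.28, DUSP6 from -0.13 to 0.53, DUSP7 from -0.12 to 0.033 and DUSP8 from -0.19 to 0.0093. In the mean, DUSP4 ran from -0.17 to 0.0034 and DUSP8 from -0.075 to 0.0047. Between responses, DUSP6 ran from -0.11 to 0.25 (K154R minus WT), -0.35 to 0.32 (K154Q minus WT) and -0.41 to 0.25 (K154Q minus K154R), and DUSP1 from -0.20 to 0.052 (K154Q minus K154R).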
